A study of Mus musculus with 6 samples.

Results

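The prostaglandin enzymes and receptors described here are 10 genes, taken by symbol from a deposited table of 47729 mouse genes: Ptgs1, Ptgs2, Ptges, Ptgds, Ptgis, Hpgd, Ptger1, Ptger2, Ptger3 and Ptger4. Each symbol matched 1 row, and all 10 were among the 17023 genes with enough reads to be tested. RNA was sequenced from skin epidermis of wild type C57BL/6 mice treated with AKBA gel (3 libraries) or with control gel (3 libraries), which held no AKBA. AKBA, an acetylated keto form of boswellic acid from the resin of Boswellia trees, is known for acting on enzymes of eicosanoid synthesis. Control libraries are described by the letters IMQ, left unexplained in the labels. Any other treatment of the skin is therefore not known here, nor are the dose, the time and the age of the mice. Separate animals are not named in the labels, so p-values measure only how much these libraries varied, which may be technical.

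Prostaglandins are short-lived lipid signals made from arachidonic acid. The cyclooxygenases turn arachidonic acid into the unstable intermediate PGH2, and a terminal synthase then turns PGH2 into PGE2, PGD2, prostacyclin or another product. In skin PGE2 takes part in inflammation, in wound repair and in the growth of keratinocytes. It acts through 4 receptors on the cell surface, EP1 to EP4, and is inactivated by oxidation. Ptgs1 encodes the cyclooxygenase COX-1, present in many tissues at rest, and Ptgs2 encodes COX-2, an early-response gene induced by cytokines, growth factors and injury.

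The libraries held 19066045 to 22760432 counts. A floor of 3 counts came to 0.128 to 0.159 CPM, which puts libraries of different depth on 1 scale with TMM factors, for counting error only. Cell type markers showed a mixed tissue. The 7 basal and 6 suprabasal keratinocyte markers summed to 11071 to 15470 and 33295 to 61388 CPM with AKBA gel, and to 14400 to 33169 and 24593 to 37386 CPM with control gel. All 8 fibroblast markers were detected as well, at a sum of 19856 to 26201 CPM with AKBA gel, against 19227 to 35815 CPM with control gel. In bulk RNA fewer cells of a type and less RNA per cell cannot be told apart.

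The promoters of the 2 synthesis enzymes with all AKBA libraries under all control libraries, Ptgs2 and Ptges, are printed below beside that of Ptgs1, whose levels overlapped between the groups. Each window runs from 250 bases before to 50 bases after the start of the RefSeq gene on GRCm38.p6, on the strand of the gene. The Ptges window lies inside the GENCODE span of that gene (30889471 to 30929863), so the annotations differ on its start. Capitals mark matches to a short list of motifs, chosen with results of these data known.
Ptgs2 (chr1:150099781-150100080, + strand): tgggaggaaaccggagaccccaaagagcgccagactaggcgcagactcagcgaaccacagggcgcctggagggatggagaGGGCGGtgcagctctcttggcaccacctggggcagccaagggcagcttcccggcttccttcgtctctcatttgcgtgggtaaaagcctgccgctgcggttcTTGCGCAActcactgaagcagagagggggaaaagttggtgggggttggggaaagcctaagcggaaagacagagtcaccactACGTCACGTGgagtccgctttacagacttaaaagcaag
Ptges (chr2:30903248-30903547, - strand): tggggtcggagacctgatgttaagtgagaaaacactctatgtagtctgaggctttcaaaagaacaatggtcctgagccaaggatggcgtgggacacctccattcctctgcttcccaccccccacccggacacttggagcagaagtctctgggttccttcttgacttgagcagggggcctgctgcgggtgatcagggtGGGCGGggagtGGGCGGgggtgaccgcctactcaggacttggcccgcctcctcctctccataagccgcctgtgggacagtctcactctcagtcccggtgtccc
Ptgs1 (chr2:36230176-36230475, + strand): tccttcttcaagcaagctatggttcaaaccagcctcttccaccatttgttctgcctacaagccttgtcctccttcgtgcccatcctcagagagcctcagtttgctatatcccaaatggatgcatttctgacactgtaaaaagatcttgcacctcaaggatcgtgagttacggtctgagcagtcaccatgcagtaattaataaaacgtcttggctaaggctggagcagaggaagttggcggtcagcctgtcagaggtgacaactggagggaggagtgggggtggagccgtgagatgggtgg
In the Ptgs2 window the capitals are, in order, the Sp1 box GGGCGG at -170 from the annotated start, the C/EBP palindrome TTGCGCAA at -69, and a run at 13 where the CRE core ACGTCA overlaps the E-box CACGTG that begins at 17. In the Ptges window they are Sp1 boxes at -53 and -42, and the Ptgs1 window holds no match. Over all 32851 windows of the same length, searched on both strands, 7.15% held the E-box, 7.51% the CRE core, 0.183% the C/EBP palindrome and 35.7% the Sp1 box. The AP-1 motif TGANTCA (7.81% of windows), the TATA box TATAAA (13.6%) and the NF-κB motif (8.46%) were also searched, and none matched in these 3 windows. Of the 8 member windows, printed or not, 5 held the Sp1 box, so it was not particular to Ptgs2 and Ptges. The AP-1 motif, the TATA box and the NF-κB motif each matched in 1 member window that is not printed. A match or its absence describes these letters only.

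No prostaglandin gene passed the test. By edgeR's quasi-likelihood test, adjusted over all genes tested, 0 of the 10 passed at 0.05 (smallest adjusted p = 0.331), as did 0% of all genes. At an unadjusted p under 0.05, 3 members were lower with AKBA gel, namely Ptgs2, Ptges and Ptger1, and 0 were higher, where the background over all genes was 7.01% lower and 6.45% higher. DESeq2 also called 0 members, while it called 1.21% of the genes it tested as lower. In the authors' deposited table Ptgs2 was the only member called, against a background of 0.331% of all 47729 genes called as lower there. That share includes 19134 genes with no count in any library, so its base is wider than that of the other shares. Over the 10 members the median log2 fold change (AKBA gel over control gel) was 0.01, beside 0.00 over all genes tested, with 5 members negative and 5 positive.

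**Figure D1:**
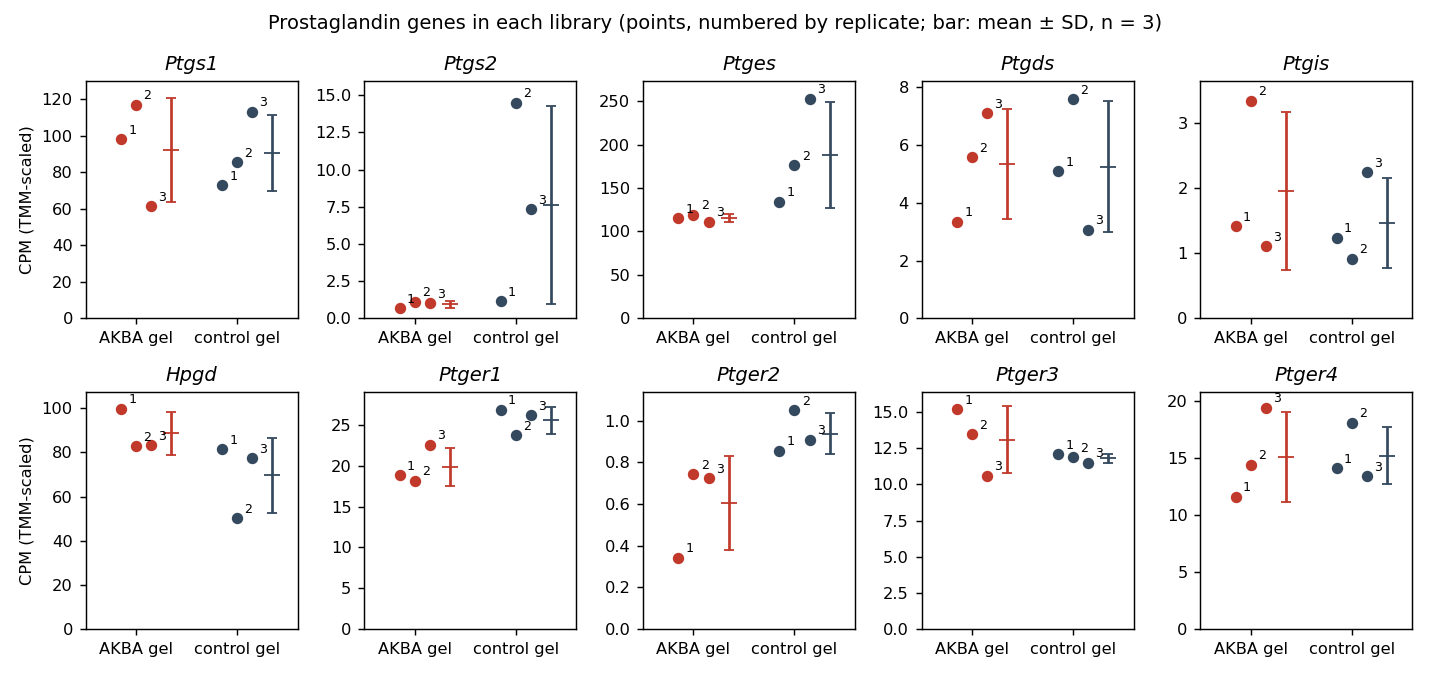
TMM-scaled CPM of each of the 10 genes in every library, numbered by replicate, with AKBA gel left of control gel and a bar for mean ± SD (n = 3). Ptgs2 stood at 14.5 and 7.33 CPM in control replicates 2 and 3 and at no more than 1.14 CPM in the other libraries.

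Both cyclooxygenases were detected, and they differed in how they varied between libraries. Ptgs2 (ENSMUSG00000032487, chromosome 1, 150100031 to 150108227, GRCm38) was at 0.687, 1.12 and 1.02 CPM in AKBA replicates 1 to 3, against 1.14, 14.5 and 7.33 CPM in control replicates 1 to 3. These levels rest on 14, 21 and 24 counts with AKBA gel, against 24, 331 and 153 counts with control gel. Control replicate 1 thus lay with the AKBA libraries, and it stood above the highest of them by less than the worth of 1 read. The log2 fold change was -3.02 ± 0.81 (SE), 8.09-fold lower with AKBA gel, with an edgeR adjusted p of 0.331 and a DESeq2 adjusted p of 0.0591. In the authors' deposited table it was -2.53 with an adjusted p of 0.00160. Without control replicate 2 the log2 fold change was -2.17 and without control replicate 1 it was -3.51, the ends of the range over the libraries left out, and the edgeR adjusted p without control replicate 1 was 0.0613.

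Ptgs1 (ENSMUSG00000047250, chromosome 2, 36230426 to 36252272) was at 98.1, 117 and 61.2 CPM in the AKBA libraries, against 72.7, 85.5 and 113 CPM in the control libraries. The groups overlapped over most of their range. Its log2 fold change was 0.03 ± 0.26 (edgeR adjusted p = 0.974), and with 1 library left out it went from -0.18 to 0.26. On the deposited FPKM scale, which divides by gene length, the level of Ptgs1 was 164, 124 and 70.1 times that of Ptgs2 in the AKBA libraries, against 76.4, 6.98 and 18.2 times in the control libraries. COX-1 transcripts were therefore the more abundant in all 6 libraries. The ratios overlapped between the groups (exact permutation test on the log2 ratio, 2-sided p = 0.200, where 0.100 is the smallest that 3 against 3 libraries allow).

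Ptges encodes microsomal PGE synthase-1, the inducible terminal synthase that works with COX-2 to make PGE2. Ptges (ENSMUSG00000050737, chromosome 2, 30889471 to 30929863) was at 115, 119 and 111 CPM in the AKBA libraries, against 134, 176 and 253 CPM in the control libraries. No AKBA library reached the lowest control library, and the AKBA libraries were close together (115 ± 4.45 CPM) where the control libraries were spread (188 ± 60.6 CPM, SD, n = 3 each). The log2 fold change was -0.71 ± 0.22, 1.63-fold lower with AKBA gel (edgeR adjusted p = 0.334, DESeq2 adjusted p = 0.0783). It was -0.43 without control replicate 3 and -0.89 without control replicate 1. Control replicate 1, the lowest control library for Ptgs2, was also the lowest for Ptges. The highest control library was replicate 2 for Ptgs2 and replicate 3 for Ptges.

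The other terminal synthases among the members, Ptgds and Ptgis, had low levels and overlapping groups. Ptgds (ENSMUSG00000015090), the lipocalin-type PGD2 synthase, was at 3.34, 5.58 and 7.11 CPM with AKBA gel, against 5.09, 7.60 and 3.07 CPM with control gel (log2 fold change 0.02 ± 0.39, edgeR adjusted p = 0.985). Ptgis (ENSMUSG00000017969), the prostacyclin synthase known from vessel walls and fibroblasts, was at 1.42, 3.35 and 1.11 CPM with AKBA gel, against 1.24, 0.917 and 2.25 CPM with control gel (0.41 ± 0.51, edgeR adjusted p = 0.760). Its sign rested on AKBA replicate 2, without which the log2 fold change was -0.21. All 6 endothelial markers had negative log2 fold changes, with sums of 195 to 353 CPM with AKBA gel, against 332 to 440 CPM with control gel. Of the fibroblast markers 7 of 8 were negative too. The part of either list in these values was not tested.

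Hpgd encodes 15-hydroxyprostaglandin dehydrogenase, which starts the breakdown of PGE2. Hpgd (ENSMUSG00000031613, chromosome 8, 56294585 to 56321043) was at 99.9, 82.8 and 83.3 CPM in the AKBA libraries, against 81.5, 50.2 and 77.4 CPM in the control libraries. It was the only member with every AKBA library above every control library, a pattern that 9.28% of all genes tested showed. On the FPKM scale, which has no TMM scaling, Hpgd was at 48.39 in control replicate 1 and at 47.54 in AKBA replicate 2, so there the groups overlapped. Its log2 fold change was 0.35 ± 0.19 (edgeR adjusted p = 0.469) and 0.15 ± 0.14 without control replicate 2. The level of Ptges over that of Hpgd, both as FPKM, was 0.504, 0.631 and 0.580 with AKBA gel, against 0.720, 1.53 and 1.43 with control gel. The ratio was chosen after the levels had been seen, and its separation of the groups largely follows from the levels of Ptges and Hpgd given above, so no p-value is given for it.

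**Figure D2:**
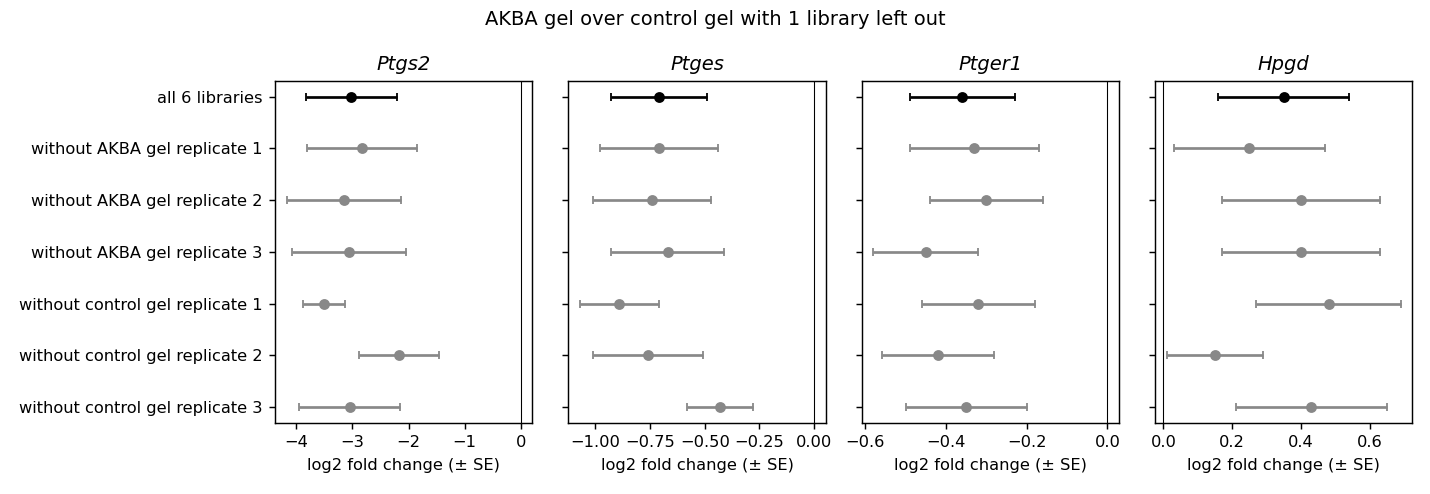
Log2 fold change, AKBA gel over control gel (± SE), for Ptgs2, Ptges, Ptger1 and Hpgd, with all 6 libraries in black and with each library left out in grey. Each gene kept its sign throughout, from -3.51 to -2.17 for Ptgs2 and from 0.15 to 0.48 for Hpgd.

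The PGE2 receptors split into a pair with lower CPM in every AKBA library and a pair with overlapping groups. Across the family 4 of the 10 members, Ptgs2, Ptges, Ptger1 and Ptger2, had every AKBA library below every control library in CPM, beside 9.10% of all genes tested. Ptger1 encodes EP1, a receptor that signals through calcium. Ptger1 (ENSMUSG00000019464, chromosome 8, 83666678 to 83672753) was at 18.9, 18.2 and 22.6 CPM with AKBA gel, against 26.9, 23.8 and 26.2 CPM with control gel (log2 fold change -0.36 ± 0.13, edgeR adjusted p = 0.339). On the FPKM scale AKBA replicate 3, at 4.86, stood just above control replicate 3, at 4.85. No source used here says that counting used the strand, so reads of genes that overlap on opposite strands cannot be told apart.

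EP2 and EP4 raise cyclic AMP, and EP3 mainly lowers it. Ptger2 (ENSMUSG00000037759, chromosome 14), which encodes EP2, had 7, 14 and 17 counts with AKBA gel, against 18, 24 and 19 counts with control gel. In CPM these were 0.343, 0.744 and 0.724, against 0.857, 1.05 and 0.910 (log2 fold change -0.63 ± 0.35, edgeR adjusted p = 0.475). Without AKBA replicate 1, its lowest library, the log2 fold change was -0.35. Ptger4 (ENSMUSG00000039942, chromosome 15), which encodes EP4, was at 11.6, 14.4 and 19.4 CPM with AKBA gel, against 14.1, 18.1 and 13.4 CPM with control gel (-0.01 ± 0.21). Ptger3 (ENSMUSG00000040016, chromosome 3), which encodes EP3, was at 15.2, 13.5 and 10.6 CPM with AKBA gel, against 12.1, 11.9 and 11.5 CPM with control gel (0.15 ± 0.16). The control libraries for Ptger3 were close together and all lay inside the range of the AKBA libraries. The edgeR adjusted p was 0.991 for Ptger4 and 0.721 for Ptger3, which does not show that their levels were alike.

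Within the receptor family EP1 had the highest level per length. Of the summed FPKM of the 4 receptors, Ptger1 made up 45.8% ± 2.09 with AKBA gel and 52.8% ± 3.78 with control gel (SD, n = 3 each). Ptger3 made up 26.6% ± 6.36 with AKBA gel and 21.2% ± 0.204 with control gel, Ptger4 25.8% ± 4.77 and 23.4% ± 3.63, and Ptger2 1.86% ± 0.675 and 2.61% ± 0.235. The sum over the receptors overlapped between the groups, at 8.13 to 10.2 FPKM with AKBA gel and 8.78 to 10.2 FPKM with control gel.

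Levels per length differed widely across the 10 genes. Hpgd (46.0 ± 9.30 FPKM, SD over all 6 libraries), Ptges (38.1 ± 12.2) and Ptgs1 (23.3 ± 4.82) had the highest means, and Ptgs1 stood above the next gene in all 6 libraries. Hpgd stood above Ptges in 4 of 6 libraries. The exceptions were control replicates 2 and 3, where Ptges was at 46.19 and 59.13 FPKM and Hpgd at 30.11 and 41.28 FPKM. Next came Ptger1 (4.59 ± 0.752), Ptgds (3.25 ± 1.27), Ptger4 (2.30 ± 0.549) and Ptger3 (2.19 ± 0.264), and Ptger4 and Ptger3 did not differ beyond their spread. Ptgs2 (0.933 ± 1.24 FPKM), Ptgis (0.658 ± 0.342) and Ptger2 (0.210 ± 0.0666) had the lowest means. The place of Ptgs2 differed between libraries. Its mean was 0.210 ± 0.0520 FPKM with AKBA gel and 1.66 ± 1.51 FPKM with control gel, but control replicate 1 (0.25 FPKM) lay with the AKBA libraries. In control replicate 2 (3.25 FPKM) Ptgs2 stood above Ptger3 (2.16) and Ptger4 (2.81). Ptgs2 spanned 0.15 to 3.25 FPKM, the widest relative range of the family, and it stood above Ptgis in 2 of 6 libraries, both of them control libraries.

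**Figure D3:**
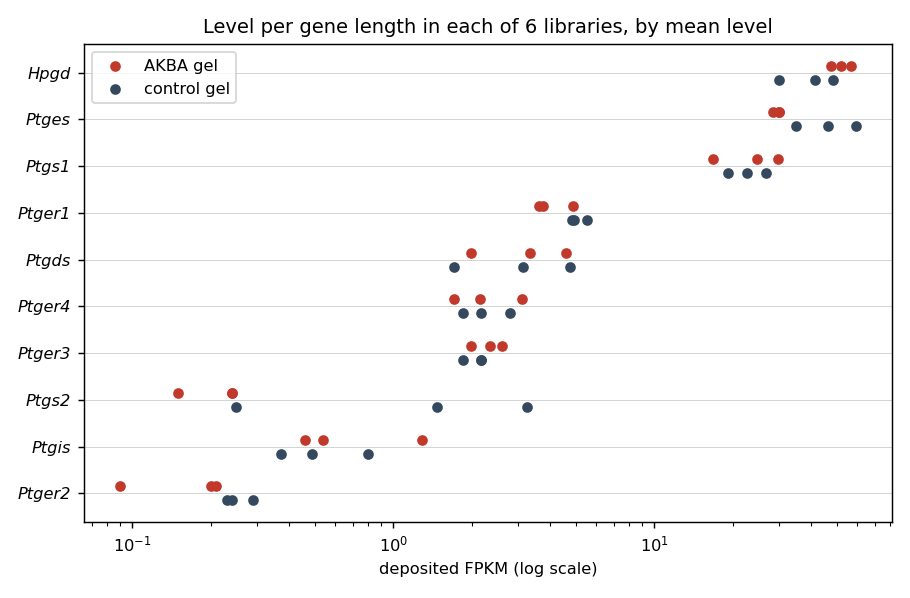
Deposited FPKM of the 10 genes in each library on a log axis, ordered by the mean over 6 libraries, with AKBA gel above control gel in each row. Hpgd, Ptges and Ptgs1 lie between 16.82 and 59.13 FPKM, and Ptgs2 spans 0.15 to 3.25 FPKM.

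The wider prostanoid pathway was read from 24 further genes for arachidonic acid release, other synthases, transport, breakdown and other receptors. None passed by edgeR (smallest adjusted p = 0.331). At an unadjusted p under 0.05, 7 were lower with AKBA gel and 0 were higher, against the 7.01% and 6.45% of all genes given above. Their median log2 fold change was -0.14, with 16 negative and 8 positive, where 8441 of all 17023 genes tested were negative. By role the medians were -0.16 for 11 supply and synthase genes, 0.06 for 5 transport and breakdown genes and -0.37 for 8 other receptors. The last list also holds Pparg, Ppard and Ptgfrn, which are not prostanoid receptors of the cell surface. DESeq2 called 2 of the 24 as lower, Tbxas1 and Akr1b8, beside 1.21% of all the genes it tested.

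Tbxas1, the thromboxane synthase of platelets and macrophages, was at 5.59, 5.90 and 5.11 CPM with AKBA gel, against 10.9, 7.38 and 13.3 CPM with control gel (log2 fold change -0.92 ± 0.23, DESeq2 adjusted p = 0.0343, edgeR adjusted p = 0.331). Hpgds, the hematopoietic PGD2 synthase, was at 33.0, 25.4 and 32.2 CPM with AKBA gel, against 46.3, 33.5 and 57.2 CPM with control gel (-0.60 ± 0.20, edgeR adjusted p = 0.339). For both genes the groups did not overlap. All 6 macrophage markers had negative log2 fold changes (median -0.43), with sums of 643 to 829 CPM with AKBA gel, against 937 to 1146 CPM with control gel. All 6 mast cell markers were negative too, with sums of 83.8 to 143 CPM with AKBA gel, against 127 to 169 CPM with control gel. Negative values were not particular to these lists, as all 5 smooth muscle and pericyte, all 5 T cell and 7 of 8 fibroblast markers were negative. By contrast 1 of 6 suprabasal, 0 of 5 sebaceous and 0 of 3 Langerhans markers were negative. The part of any of these markers in the values of Tbxas1 and Hpgds was not tested.

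Akr1b8, an aldo-keto reductase, was at 17.3, 12.1 and 14.1 CPM with AKBA gel, against 17.0, 39.2 and 59.2 CPM with control gel (log2 fold change -1.41 ± 0.40, DESeq2 adjusted p = 0.0198, edgeR adjusted p = 0.331). Control replicate 1 lay inside the range of the AKBA libraries, and control replicate 3 was the highest, as for Ptges. A relative of Akr1b8, the aldose reductase Akr1b3, was at 51.0 ± 2.40 CPM with AKBA gel, against 61.2 ± 5.65 CPM with control gel (-0.26 ± 0.11, edgeR adjusted p = 0.357). The prostaglandin transporter Slco2a1 was at 27.1, 28.5 and 48.0 CPM with AKBA gel, against 39.5, 89.5 and 65.7 CPM with control gel (-0.91 ± 0.33, edgeR adjusted p = 0.339), and its groups overlapped.

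Among the other receptors Ppard, a nuclear receptor for fatty acid ligands active in keratinocytes, was at 79.5, 73.3 and 76.9 CPM with AKBA gel, against 86.6, 119 and 173 CPM with control gel (log2 fold change -0.72 ± 0.23, edgeR adjusted p = 0.334). Ptgfrn, a membrane protein named for its effect on the PGF receptor, was at 204 ± 17.9 CPM with AKBA gel, against 277 ± 34.0 CPM with control gel (-0.45 ± 0.14, edgeR adjusted p = 0.334). The groups overlapped for neither. Ptgr1, a reductase that acts on prostaglandin breakdown products and the second most abundant of the 24 genes by CPM, was at 121 ± 23.2 CPM with AKBA gel, against 105 ± 21.2 CPM with control gel (0.21 ± 0.19, edgeR adjusted p = 0.669). Pla2g4a, the phospholipase that releases arachidonic acid, was at 26.7 ± 0.630 CPM with AKBA gel, against 29.9 ± 5.69 CPM with control gel (-0.16 ± 0.15).

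**Figure D4:**
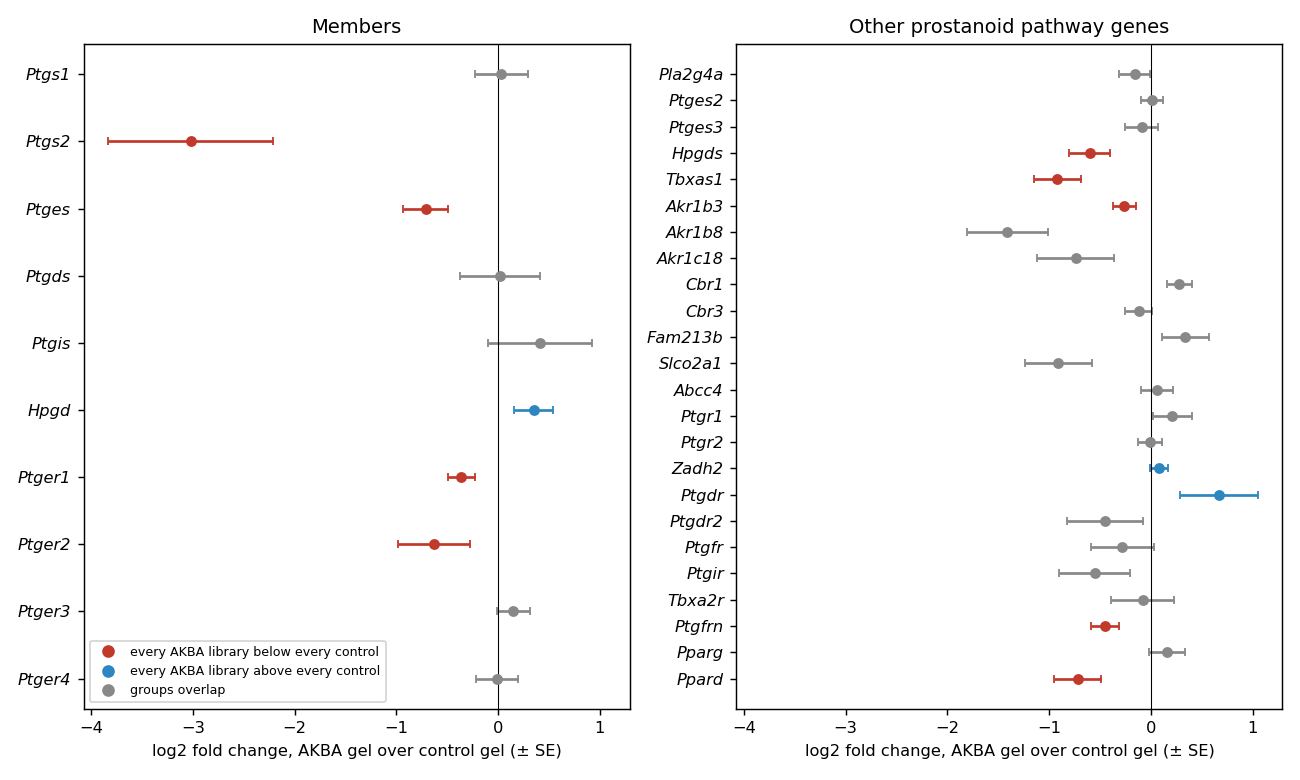
Log2 fold change, AKBA gel over control gel (± SE), for the 10 members and the 24 other pathway genes, in red where all AKBA libraries lay below all control libraries, in blue where all lay above and in grey where the groups overlapped. Ptgs2 at -3.02 lies farthest from 0, and none of the 34 genes passed by edgeR.

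Marker sums also differed between control libraries, and not in 1 order. The basal keratinocyte sum was 14400, 21159 and 33169 CPM in control replicates 1 to 3, with replicate 1 lowest, beside 15470, 11071 and 13845 CPM in the AKBA libraries. In the neutrophil list Ly6g had 0 counts and of 5 markers only S100a8 and S100a9 were tested, so its sum does not identify neutrophils. That sum was 675, 286 and 808 CPM with AKBA gel, against 664, 1052 and 3340 CPM with control gel. Control replicate 1 was instead the highest control library for the suprabasal (37386, 24593 and 28635 CPM in control replicates 1 to 3), fibroblast (35815, 28329 and 19227 CPM), smooth muscle, Langerhans, sebaceous, skeletal muscle and Schwann cell sums. The part of these markers in the values of Ptgs2 and Ptges was not tested. By pattern over the 6 libraries, the genes most like Ptgs2 among 12261 with a mean of at least 5 CPM were E130012A19Rik (Pearson r of log2 CPM 0.9999), Brpf1 (0.9975) and Emilin2 (0.9927). The genes most like Ptges were Pld1 (0.9981), Cdk6 (0.9949) and Asun (0.9945). These correlations are the highest of many over 6 libraries that share 1 grouping and depth, and are given as a description.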

How the data were processed

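Per the labels' protocols, Dispase II freed the epidermis, TRIzol was used for the RNA and a TruSeq kit for the libraries. CASAVA 1.8, RSEM and edgeR are named in the submitters' processing notes, with build GRCm38 and without their roles. The authors deposited whole-number counts per gene and FPKM values, which are the counts divided by the library total and by 1 length per gene. They also deposited a log2 fold change, a p-value and an FDR (an adjusted p-value) per gene. Whether the counts were rounded from estimates is not stated.

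Counts were tested over the whole table with edgeR 4.0.16 in R 4.3.3 (TMM scaling, the default low-count filter, the 2-sided quasi-likelihood F test, Benjamini-Hochberg adjustment over 17023 genes, threshold 0.05). The standard error is the size of the log2 fold change divided by the square root of F. CPM used TMM-scaled totals and log2 CPM a prior count of 2. DESeq2 1.42.0 was an alternative, beside DESeq2 size factors, no filter, a filter of 5 CPM in 3 libraries, a replicate block and leaving out each library. The scripts were tested on simulated data. FPKM served for levels between genes. Chi-square per degree of freedom between replicates was at least 30.8, above sampling noise. Positions are from GENCODE M21 on GRCm38. RefSeq promoter windows matched 8 of the 10 members. All 10 members were named. Of the other pathway genes, those with an unadjusted p under 0.05 and the 3 with the highest mean CPM were named, and Pla2g4a after its values had been seen. Members, lists and motifs were chosen with earlier results of these data known. Of the results computed, 1 is not reported here.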

Additional observations from a re-analysis of the deposited data

How the results depend on the processing

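By edgeR 0 members and 0 of the 24 other pathway genes passed under DESeq2 size factors, no low-count filter, the stricter filter, the replicate block and every omission of a library. Over all genes the count was 0 under these settings except without control replicate 1, where it was 14, so it ranged from 0 to 14 over the libraries left out. With the DESeq2 Wald test it was 298 of 16947 genes (93 higher and 205 lower with AKBA gel), with 2 of the 24 other pathway genes and 0 of the 10 members. Under the stricter filter 20 of the 24 other pathway genes were tested, and 7 members, without Ptgs2, Ptgis and Ptger2. Over all alternatives the adjusted p of Ptgs2 ran from 0.0591 to 0.677 and that of Ptges from 0.0783 to 0.677. Ptgs2, Ptges, Hpgd, Ptger1, Ptger2 and Ptger3 kept their sign under every alternative in which they were tested. Ptgis changed sign in 1 of 10 alternatives and Ptgs1, Ptgds and Ptger4, all within 0.03 of 0 with 6 libraries, in 4, 3 and 4 of 11. Deviations from the group mean gave r = 0.072, 0.019 and -0.327 across genes between libraries of the same number, for numbers 1 to 3. Between libraries of unlike number r ran from -0.483 to 0.434. With 3 libraries per group the deviations sum to 0 within each group, so these values cannot decide whether the numbers pair libraries. The labels do not say that they do. With the replicate block 0 genes passed, and the log2 fold change of Ptgs2 was -2.59. Ptger2 rests on 7 to 24 counts per library, which limits its precision.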
